A study of Mus musculus with 24 samples.

Results

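The left ventricular response to angiotensin II (ANG II) was described in 6 of the 24 samples of the series: samples 7, 8 and 9 of the ANG II-induced hypertensive group and samples 7, 8 and 9 of the control group. Male wild-type C57BL/6J mice received ANG II at 1500 ng/kg/min, or saline, for 7 days from osmotic mini-pumps placed under the skin, and the heart was flushed with saline before the ventricle was taken. Messenger RNA was captured on oligo(dT) and read by sequencing, which gave 1 deposited value per gene and sample. The other 9 ANG II and 9 control samples, treated alike, are set beside these 6. Neither the age of the mice nor the hour of collection is given in the sources used here, and nothing in the labels says whether samples with the same number were handled together. The 6 samples were selected on measured FPKM values, since the gene calls of this and the other sets of samples were already known, so the differences between their groups and the test against the other samples are given as a description: an adjusted p serves only as a cut for calling genes, and no p of a single gene is printed for either. In a bulk sample, fewer cells of a type and less RNA per cell cannot be told apart.

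Values are FPKM, a fragment count scaled by transcript length and library size, in the form the authors deposited. Exact ties show that the values of a gene had been shifted and scaled together within 4 sets of 3 consecutive sample numbers, each set holding ANG II and control samples. Any pair among samples 7 to 9 shared 260 to 519 tied genes, and a pair from different sets shared 0. The spacing of the values fits an adjustment that holds 1 group difference per gene common to all sets. The difference in samples 7 to 9 and that in the other samples therefore share this part, and the ANG II minus control difference before the adjustment, solved for 13776 of 14912 genes, is given beside the results. Where a set lay as a whole before the adjustment is not known, so it cannot be told whether its control or its ANG II samples stood apart from the other sets. The 759 negative values in the 6 samples were set to 0, and a gene listed at 0 in all 3 samples of a group gets no fold, since its difference on the log2 scale depends on the added 1. Changes are given as differences of log2(FPKM + 1), which understate the change of low genes, with the standard error (SE) over 3 and 3 samples. The values summed to 475964 to 515192 in ANG II samples 7 to 9 and to 503207 to 507266 in the controls. The labelled tissue carried its markers: Myl2, the ventricular light chain of myosin, lay between 6825 and 13692 FPKM in all 6 samples. In ANG II sample 8 the summed level of 10 ventricular myocyte markers was 37022 FPKM, against 50049 and 52067 in ANG II samples 7 and 9 and 50985 to 56530.0 in the controls. The summed level of 10 red blood cell genes was 3185, 867 and 5034 FPKM in ANG II samples 7, 8 and 9 and 415 to 1039 FPKM in the controls, and its part in the results was not tested.

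ANG II raises blood pressure and acts on myocytes, fibroblasts and vessels through its type 1 receptor. In the pressure-loaded ventricle, myocytes enlarge and take up a fetal gene program, fibroblasts lay down matrix, and monocytes enter from the blood. The heart also has its own circadian clock, in which the activators Arntl and Clock drive their repressors Per, Cry and Nr1d1 and output factors such as Dbp, so that the levels of these genes depend on the hour of the day.

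In samples 7 to 9, most mitosis genes and hypertrophy markers were called higher in ANG II than in control mice, and clock genes were called in both directions. A gene was called where the adjusted p was below 0.05 and the log2 fold change was over 0.5 in either direction. By this rule 288 of 14026 tested genes (2.05%) were higher and 248 (1.77%) lower in the ANG II samples, and under median-ratio scaling 352 were higher and 191 lower. In the other 9 against 9 samples, 585 genes (4.17%) were higher and 207 (1.48%) lower, and quantile normalization changed this to 387 and 284. Of the genes called higher in samples 7 to 9, 126 (43.8%) were also called higher in the other samples, and of those called lower, 60 (24.2%) were also called lower there. Together these were 34.7% of the genes called in samples 7 to 9 and 23.5% of those called in the other samples. Only Irx3, higher here, and Angptl7, lower here, were called in opposite directions. Before the adjustment Irx3 kept its direction, while Angptl7 had overlapping groups and a difference of 0.263 FPKM, so its lower call stands in the adjusted values only. Both genes were chosen after their values were seen. Leaving out 1 sample changed the count in samples 7 to 9 from 536 to 1463 without ANG II sample 9, 274 without ANG II sample 7, and 99, 87 and 206 without control samples 7, 8 and 9. In the other samples, 792 genes were called, and without samples 4 to 6 there were 291, of which 113 were higher and 178 lower, which turned the balance around. The median over all tested genes was -0.02 in samples 7 to 9 and 0.08 in the other samples. Called or not, 6352 of the 14026 tested genes were higher and 7665 lower with ANG II in samples 7 to 9.

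**Figure D1:**
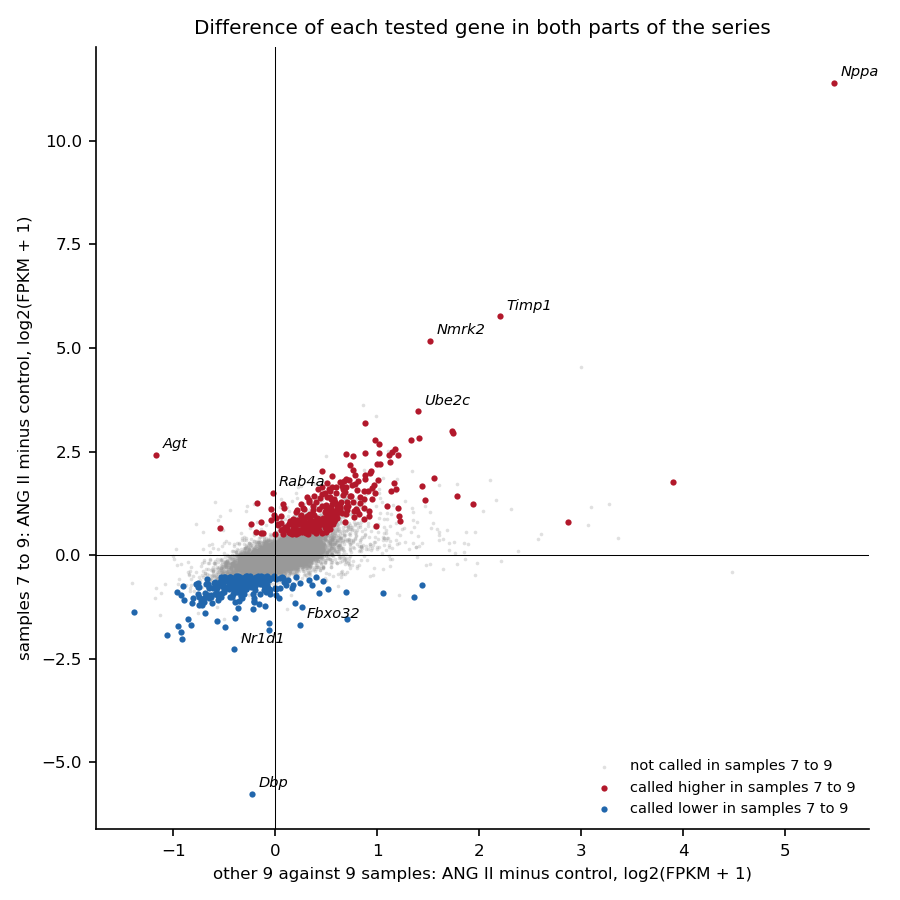
Each point is a tested gene, with its ANG II minus control difference in log2(FPKM + 1) in the other 9 against 9 samples on the x axis and in samples 7 to 9 on the y axis; red points are the 288 genes called higher and blue points the 248 called lower in samples 7 to 9. Dbp lies at -5.76 in samples 7 to 9 and -0.23 in the others, and part of the shared trend was put there by the adjustment, which holds 1 group difference for all sets.

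Before the adjustment, 277 of the 288 genes called higher could be solved, and the ANG II mean was higher in 277 of them. Of the 248 called lower, 238 could be solved and 237 were lower. The groups did not overlap before the adjustment in 275 and 234 of these genes, against 18.6% higher and 18.0% lower of all 13355 solved genes. Because these genes were called on the same samples, their direction and separation here were largely fixed by the calling. Before the adjustment, the mean of the other 3 sets had the same direction in 262 of the 277 and 210 of the 238. Over all 13355 solved genes, that mean had the direction of samples 7 to 9 in 71.4%. In all 3 other sets the direction was the same for 166 and 147 of the called genes. A fit before the adjustment, relative to the mean of each gene and with no fold limit, called 626 genes higher and 764 lower, and the same fit on the deposited values 209 and 257. The group difference held common to all sets made up a median of 64.1% of the deposited difference of the genes called higher and 54.2% of that of the genes called lower.

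**Figure D2:**
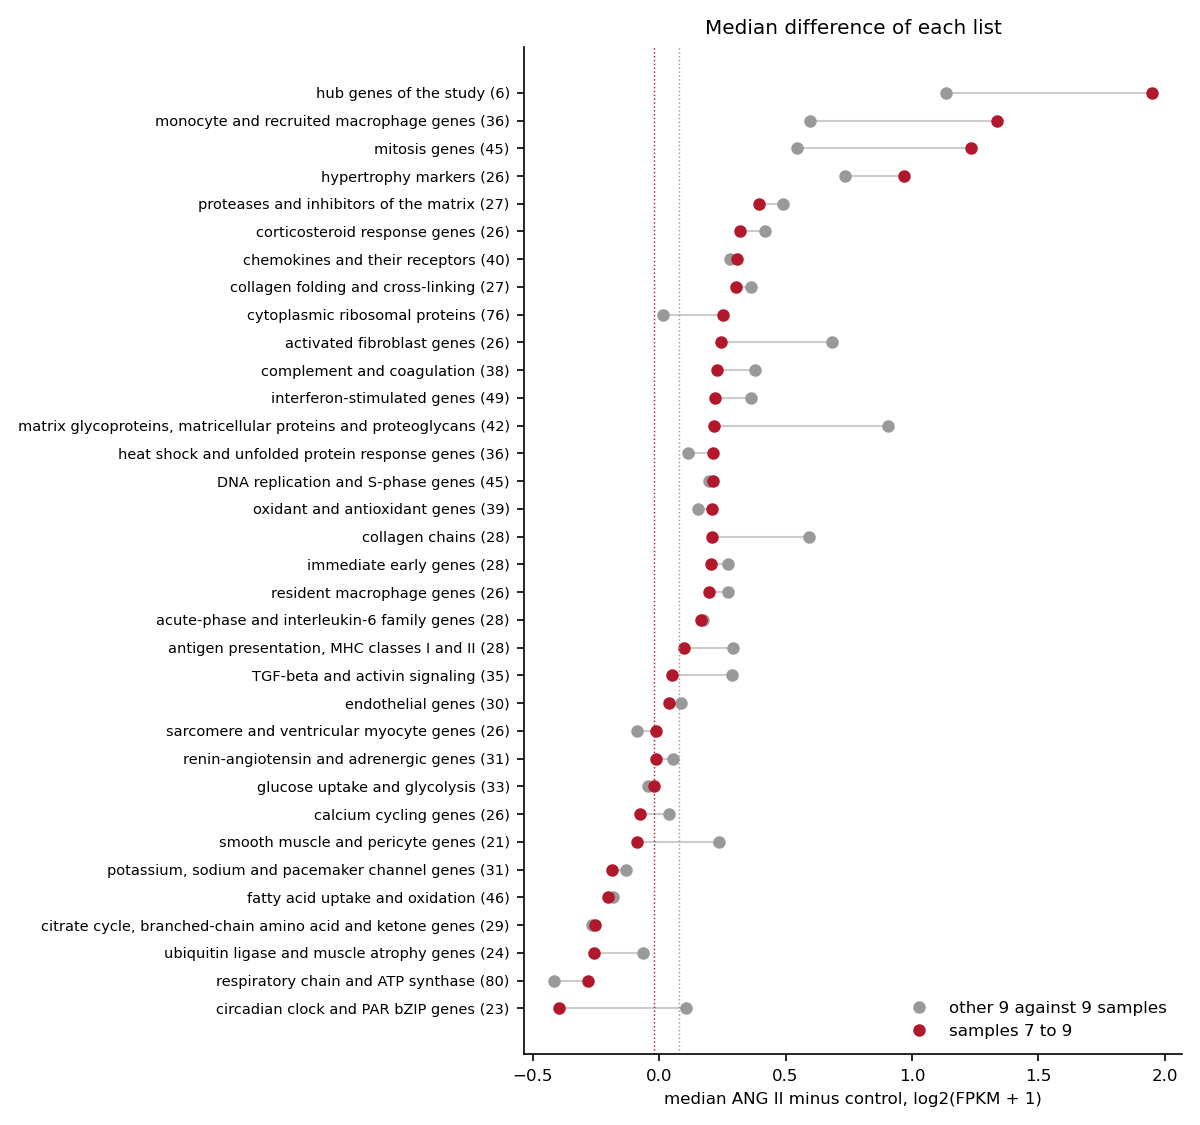
Median ANG II minus control difference, in log2(FPKM + 1), of each of the 34 functional lists in samples 7 to 9 (red) and in the other 9 against 9 samples (grey), with the number of members tested in brackets and the medians of all tested genes as dotted lines. Mitosis genes stand at 1.24 here and 0.54 in the others, clock genes at -0.39 and 0.11, and collagen chains at 0.21 and 0.59.

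Among 23 clock genes, 8 were called lower and 3 higher in samples 7 to 9, and 0 were called in the other samples, where limma gave 5 at an unadjusted p below 0.05. The median of the list was -0.39, against 0.11 in the other samples. The lower genes were Dbp, Nr1d1, Ciart, Hlf, Per3, Tef, Nr1d2 and Usp2, outputs of the E-box phase of the clock, and the higher genes were Arntl, Npas2 and Nfil3, which are known to cycle in opposite phase. Without control sample 8, 2 were called lower and 0 higher, without control sample 7, 5 and 0, without control sample 9, 6 and 1, and without ANG II sample 7, 6 and 0.

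Dbp, a transcription factor of the PAR bZIP family driven directly by the clock, had 47.3, 50.0 and 63.0 FPKM in control samples 7, 8 and 9 and was listed at 0 in all 3 ANG II samples. Among the other mice, it ranged from 7.84 to 47.4 FPKM with ANG II (median 19.5) and from 11.5 to 45.2 FPKM in controls (median 22.1), so on the adjusted scale the controls of samples 7 to 9 lay above every other control and the ANG II samples below every other sample. The difference on the log2(FPKM + 1) scale was -5.76 ± 0.13 (SE), against -0.23 in the other samples (limma adjusted p = 0.61). Before the adjustment the ANG II minus control difference was -75.5 FPKM with a gap of 63.3 FPKM between the groups, and the differences in samples 1 to 3, 4 to 6 and 10 to 12 were -24.0, 11.4 and 1.60 FPKM.

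Nr1d1, the nuclear receptor that represses Arntl, was 83.4, 82.8 and 65.7 FPKM in the controls and 11.9, 10.8 and 27.1 FPKM with ANG II, a change of -2.26 ± 0.30. The groups did not overlap. In samples 1 to 3 the difference of Nr1d1 before the adjustment was -59.7 FPKM, close to the -61.1 FPKM of samples 7 to 9, while it was 2.92 and 1.93 FPKM in samples 4 to 6 and 10 to 12. Its paralog Nr1d2 was 25.4, 24.9 and 27.2 FPKM in the controls and 11.9, 18.1 and 13.8 FPKM with ANG II (-0.80 ± 0.14). Ciart, a repressor of the Arntl and Clock pair, was 3.81, 5.26 and 8.74 FPKM in the controls and 1.64, 1.92 and 1.87 FPKM with ANG II (-1.24 ± 0.24). Per3 went from 4.41, 4.93 and 6.69 FPKM to 1.65, 1.99 and 1.76 FPKM (-1.17 ± 0.15). The groups of both genes stood apart, and the ANG II samples spread less than the controls. Tef and Hlf, the remaining PAR bZIP factors, changed by -0.80 and -1.18, and the deubiquitinase Usp2 by -0.73.

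Arntl was 11.9, 11.4 and 11.7 FPKM with ANG II and 6.62, 6.25 and 4.25 FPKM in the controls (0.94 ± 0.15), and the groups did not overlap. Npas2, which can stand in for Clock, rose by 0.63 ± 0.12, and Nfil3, a repressor that binds the sites of Dbp, by 0.85 ± 0.16. The other clock genes did not pass the rule. Per1, which also answers to glucocorticoids, gave -0.39 ± 0.23, Per2 -0.46 ± 0.16, Cry1 0.40 ± 0.12 and Cry2 -0.43 ± 0.12, and Clock itself gave 0.29 ± 0.12. The share of called genes in this list may be read against the background of 3.82% called in either direction over all tested genes. Of the called clock genes, Dbp alone passed the same cut for the difference between the response here and in the other samples (-5.53), a comparison that used the values on which the samples were selected.

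**Figure D3:**
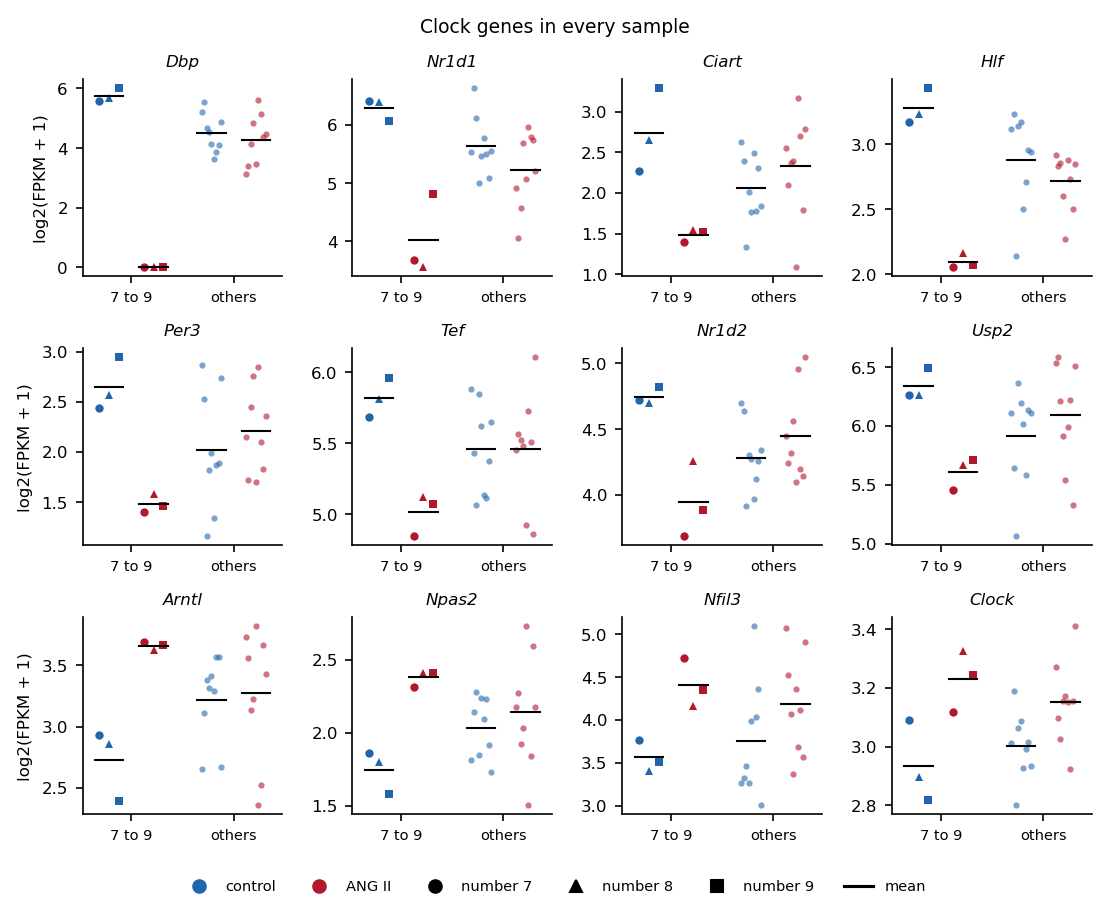
Level of 12 clock genes in log2(FPKM + 1) in control (blue) and ANG II (red) samples, in samples 7 to 9 (large symbols, by sample number) and in the other 9 and 9 samples (small dots), with bars for means. In the top and middle rows the ANG II samples 7 to 9 lie below their controls and in the bottom row above them (for Clock by 0.29, not called), while the other groups overlap in all 12 genes.

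Promoter sequence of clock genes from RefSeq (GRCm38.p6), 250 bases before to 50 bases after the start, was found for 19 of the 23 genes. The letters searched on both strands were the E-box CACGTG, which Arntl and Clock bind, the D-box TTATGTAA, which Dbp, Tef, Hlf and Nfil3 bind, and AGGTCA, the half-site of Nr1d1 and the ROR receptors. An E-box was in 5 of the 19 (26.3%), against 8.09% of all 27025 symbols and 11.3% of 11012 tested genes, and AGGTCA in 5 (26.3%), against 18.1% and 15.4%. The D-box was in 1 of the 19, Per3, against 1.11%. A match is a description of letters, not of binding. The genes shown were chosen among the called members that hold a match before the start, and all were called lower. Arntl and Nfil3, called higher, also hold AGGTCA in the window and are not shown. Each is given as 150 bases from 5′ to 3′, with the E-box, D-box or AGGTCA in capitals.
Ciart, chr3:95882229-95882378 (- strand): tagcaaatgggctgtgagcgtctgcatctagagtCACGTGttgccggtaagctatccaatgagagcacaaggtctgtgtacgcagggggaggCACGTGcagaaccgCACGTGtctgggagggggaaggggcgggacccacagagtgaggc
Tef, chr15:81802523-81802672 (+ strand): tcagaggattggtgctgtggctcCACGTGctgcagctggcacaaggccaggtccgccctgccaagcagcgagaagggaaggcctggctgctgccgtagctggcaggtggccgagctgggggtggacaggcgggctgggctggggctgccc
Per3, chr4:151044766-151044915 (- strand): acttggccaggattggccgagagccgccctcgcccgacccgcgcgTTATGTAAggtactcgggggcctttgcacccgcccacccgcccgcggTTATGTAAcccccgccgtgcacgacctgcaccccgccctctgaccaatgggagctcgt
Nr1d2, chr14:18239107-18239256 (- strand): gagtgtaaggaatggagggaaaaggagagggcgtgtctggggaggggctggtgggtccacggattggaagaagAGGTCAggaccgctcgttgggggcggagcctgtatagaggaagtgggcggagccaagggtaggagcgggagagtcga
Ciart holds 3 E-boxes, whose first bases lie 116, 58 and 44 bases before the start. Per3 holds 2 D-boxes, at 205 and 158 bases before it.

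Mitosis genes were the list with the largest share of called members apart from the 6 hub genes that the study chose on these samples. Of 45 tested, 38 were called higher and 0 lower, with a median of 1.24, and the groups stood apart with ANG II higher in 40, against 10.2% of all tested genes (27.0% in either direction). Across the other 9 and 9 samples, 25 of the 45 were called higher, with a median of 0.54. Before the adjustment 41 could be solved, of which 38 stood apart with ANG II higher, against 18.6% of all solved genes. Leaving out control sample 7 or 8 brought the count in samples 7 to 9 to 20 each, and in the other samples it was 14 without samples 4 to 6.

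Ube2c, the E2 enzyme of the anaphase-promoting complex, had 11.9, 13 and 11.1 FPKM with ANG II and 0, 0 and 0.562 FPKM in the controls. The difference was 3.48 ± 0.19 on the log2(FPKM + 1) scale and 11.4 FPKM before the adjustment. Across the other 9 and 9 samples, the ANG II range was 5.03 to 16.1 FPKM and the control range 1.14 to 5.05 FPKM (1.40, adjusted p = 0.00086), so the controls of samples 7 to 9 lay below every other control. Ccna2, the cyclin of S phase and G2, was 3.91, 6.77 and 7.42 FPKM with ANG II and 0, 0.0179 and 0.195 FPKM in the controls (2.68 ± 0.21). Its difference before the adjustment was 5.61 FPKM here and 1.10, 3.48 and 3.31 FPKM in samples 1 to 3, 4 to 6 and 10 to 12. Cdca3, which triggers the destruction of the mitotic inhibitor Wee1, was 4.83, 4.44 and 4.61 FPKM with ANG II and listed at 0 in the controls (2.49 ± 0.10). Its 3 ANG II samples lay closer together than the 3 samples of Ccna2.

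For 3 genes of cell division the difference between the response here and in the other samples passed the cut in limma. Prc1, which bundles the microtubules of the spindle midzone, was 4.12, 5.92 and 5.85 FPKM with ANG II and 0, 0.368 and 0.199 FPKM in the controls. Its difference was 2.40 here and 0.76 in the other samples, and these differed by 1.64. Cep55, which recruits the machinery of abscission, was 1.40, 2.33 and 1.71 FPKM with ANG II and listed at 0 in the controls, and the responses differed by 1.02. Depdc1a, of 0.393, 1.03 and 0.695 FPKM with ANG II and 0 in the controls, gave 0.62. Before the adjustment all 3 genes were higher with ANG II in all 4 sets. Because the samples were selected on these values, passing the cut carries no evidence that the responses differ.

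DNA replication and S-phase genes moved less. Of 45 tested, 7 were called higher and 0 lower, against 2.05% and 1.77% of all tested genes. The median was 0.21, and the same number was called higher in the other samples. Leaving out control sample 7 brought the count here to 0. Uhrf1, which reads hemimethylated DNA at the replication fork, was 2.91, 2.68 and 2.03 FPKM with ANG II and 0.326, 0.531 and 0.923 FPKM in the controls (1.16 ± 0.17). Tk1, thymidine kinase, gave 1.04 ± 0.21. Outside the lists, the cell-cycle inhibitor Cdkn1c was lower, at 7.02, 2.29 and 4.68 FPKM against 18.7, 20.3 and 16.3 FPKM (-1.87 ± 0.29). So was Gadd45a, a stress gene of the DNA damage response (-1.74 ± 0.16). In the other samples Cdkn1c was also called lower (-0.92), and Gadd45a gave -0.49, not called. Cdkn1a, another inhibitor of cyclin-dependent kinases, which stands in the list of corticosteroid response genes, was higher, at 164, 156 and 186 FPKM against 46.3, 46.8 and 39.0 FPKM (1.91 ± 0.11). The replication-dependent histone gene Hist1h2ap gave 2.77 ± 0.11, but it shares near-identical sequence with other histone genes and is uncertain.

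Mitosis gene promoters often hold the cell-cycle homology region TTTGAA close to the start together with CCAAT boxes, the elements through which the DREAM complex and NF-Y act. RefSeq promoters were found for 39 of the 47 mitosis genes of the list. TTTGAA on either strand was in 29 of the 39 (74.4%), against 20.2% of all symbols and 13.9% of 36 DNA replication genes. Of the 39, 14 held it before the start, and in the rest of the 29 it lay only at or after the start. CCAAT was in 28 of the 39 (71.8%), against 41.1% of all symbols, 61.1% of the DNA replication genes and 73.7% of the clock genes. These matches describe letters in the window only. The genes shown were chosen among called members with both motifs within 150 bases before the start. They run 5′ to 3′ on the GRCm38.p6 build, with matches to the cell-cycle homology region and the CCAAT box on either strand in capitals.
Prc1, chr7:80294326-80294475 (+ strand): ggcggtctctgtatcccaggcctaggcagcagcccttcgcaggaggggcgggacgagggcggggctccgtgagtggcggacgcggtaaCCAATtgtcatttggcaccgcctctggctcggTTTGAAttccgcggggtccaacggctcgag
Ube2c, chr2:164769779-164769928 (+ strand): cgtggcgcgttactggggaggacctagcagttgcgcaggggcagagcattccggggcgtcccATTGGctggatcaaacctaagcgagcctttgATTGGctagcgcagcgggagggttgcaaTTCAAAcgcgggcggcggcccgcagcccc
Cdk1, chr10:69352913-69353062 (- strand): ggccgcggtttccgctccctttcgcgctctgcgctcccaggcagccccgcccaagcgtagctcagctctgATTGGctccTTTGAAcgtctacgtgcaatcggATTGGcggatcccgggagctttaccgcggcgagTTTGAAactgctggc
Cdc20, chr4:118437344-118437493 (- strand): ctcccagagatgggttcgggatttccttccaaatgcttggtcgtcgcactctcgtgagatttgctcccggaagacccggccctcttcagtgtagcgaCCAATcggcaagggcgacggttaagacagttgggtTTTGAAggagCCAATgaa
The TTTGAA of Prc1 begins 30 bases before the start, that of Cdc20 18 bases, and the reverse complement in Ube2c 29 bases. Cdk1, the kinase that drives entry into mitosis, changed by 0.94 ± 0.13, and Cdc20, the activator of the anaphase-promoting complex, by 0.94 ± 0.19.

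Most hypertrophy markers were called higher in samples 7 to 9. Of 26 tested, 17 were called higher and 1 lower, against 2.05% and 1.77% of all tested genes. In the other samples 12 were called higher and 1 lower, against 4.17% and 1.48% of all tested genes. The list median was 0.97 here and 0.73 there. Without control sample 7, 8 or 9 the count higher here was 4, 4 and 8, without ANG II samples 7 and 8 in turn 10 and 11, and in the other samples it was 8 without samples 4 to 6. Nppa, atrial natriuretic peptide, was 2110.2, 3920.1 and 2415 FPKM with ANG II and listed at 0 in the controls, where the deposited values were negative. The other controls ranged from 0 to 4953 FPKM, and no difference before the adjustment could be solved for Nppa. Of 9 atrial myocyte markers, which include Nppa, 6 were higher and 2, Nppa and Sln, were called, and their sum without Nppa was 557, 498 and 446 FPKM in ANG II samples 7, 8 and 9 and 389, 375 and 438 FPKM in the controls. Myl7, the atrial light chain of myosin, was 220.3, 183 and 166 FPKM with ANG II and 126, 117 and 147 FPKM in the controls, with groups that overlapped before the adjustment (a difference of 9.63 FPKM), where Myl4, an atrial light chain too, differed by -408 FPKM. The part of atrial tissue in the result was not tested. Nppb, the B-type peptide, was 925, 451 and 592 FPKM with ANG II and 89.8, 125 and 202 FPKM in the controls (2.25 ± 0.33). In the other samples Nppb gave 1.12 (adjusted p = 0.34). Myh7, the fetal myosin heavy chain of the mouse ventricle, was 503, 498 and 173 FPKM with ANG II and 102, 111 and 97.9 FPKM in the controls (1.75 ± 0.37). ANG II sample 9 lay between the controls and the other ANG II samples. Uchl1, a ubiquitin hydrolase, gave 1.94 ± 0.22. The single marker called lower was Hopx, a regulator of cardiac growth, at 74.2, 65.2 and 94.5 FPKM against 139.9, 170.2 and 173 FPKM (-1.05 ± 0.15). Hopx was also called lower in the other samples (-0.81).

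All 6 hub genes of the study were called higher, as they were in the other samples. Ankrd1, a stress-responsive protein of the sarcomere and nucleus, was 1604, 1199 and 1038 FPKM with ANG II and 117, 198 and 556 FPKM in the controls (2.42 ± 0.49). Birc5, the survivin of the chromosomal passenger complex, gave 2.41 ± 0.14, and Nuf2, a kinetochore protein, gave 1.49 ± 0.17. C1qtnf6, a secreted C1q-like protein, was 26.3, 36.3 and 14.6 FPKM with ANG II and 7.81, 8.31 and 9.07 FPKM in the controls (1.42 ± 0.27). Fcgr3, an immunoglobulin receptor of myeloid cells, gave 1.41 ± 0.24. The sixth hub gene is Cdca3. The study chose them on a set that holds these samples, so the direction is not independent evidence.

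Among genes of sarcomere structure few passed the rule. Of 26 tested, 0 were called higher and 1 lower, Tcap, the telethonin of the Z-disc, at 455, 539 and 541 FPKM with ANG II against 1083, 1231 and 1310.3 FPKM in the controls (-1.24 ± 0.14). Among the other mice, Tcap gave -0.10 (adjusted p = 0.68). Before the adjustment its difference was -768 FPKM here and -299, -68.9 and 337 FPKM in samples 1 to 3, 4 to 6 and 10 to 12.

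The counts of called matrix genes were lower here than in the other samples, although no test compared them, and both turned on single libraries or sets. Of 28 collagen chains, 0 were called in samples 7 to 9, with a median of 0.21, and 18 were called higher in the other samples, with a median of 0.59. Of 42 matrix glycoproteins and proteoglycans, 4 were called higher here and 26 in the other samples. Without ANG II sample 9, the counts here were 6 collagen chains and 15 glycoproteins. Without samples 4 to 6, the counts in the other samples were 1 and 2. In limma 6 collagen chains had an unadjusted p below 0.05 in samples 7 to 9. Col1a1, the main chain of fibrillar collagen, was 262, 485 and 98.2 FPKM with ANG II and 96.3 and 97.0 FPKM in control samples 7 and 8, with control sample 9 slightly above them (1.24 ± 0.48), so ANG II sample 9 lay within the controls. Before the adjustment the groups of Col1a1 did not overlap, with a difference of 203 FPKM and a gap of 50.8 FPKM. For the collagen chains solved before the adjustment, the groups stood apart with ANG II higher in 20 of 26, against 18.6% of all solved genes, and in the deposited values in 4 of 28, against 10.2% of all tested genes. In the other sets the Col1a1 difference before the adjustment was 14.5, 499 and 89.0 FPKM.

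The called matrix genes differed in size of change. Ppib, Adamts15 and Eln gave 0.77 ± 0.15, 0.78 ± 0.12 and 0.79 ± 0.17, and genes with larger increases are given next. Timp1, an inhibitor of matrix metalloproteinases, was 101, 75.1 and 19.6 FPKM with ANG II and listed at 0 in the controls (5.76 ± 0.51 on the log2 scale, 81.1 FPKM before the adjustment). Tnc, tenascin C, was 16.5, 12.9 and 2.08 FPKM and listed at 0 in the controls (3.18 ± 0.56). Cthrc1, a secreted marker of activated fibroblasts, was 10.6, 32.8 and 3.84 FPKM against 0.558 FPKM in each control (2.99 ± 0.58). Lox, the enzyme that cross-links collagen and elastin, was 22.1, 39.8 and 5.95 FPKM against 1.70, 1.48 and 1.67 FPKM (2.84 ± 0.54). In these 4 genes ANG II sample 9 was the lowest of the ANG II samples, and it lay above all 3 controls. Ctgf gave 1.86 ± 0.17, and Fstl3, an antagonist of activin, gave 1.67 ± 0.20. Lrrc15, a fibroblast surface protein, was lower, at 1.18, 1.54 and 1.31 FPKM against 7.70, 6.91 and 5.55 FPKM (-1.71 ± 0.14). So was gelsolin, Gsn (-0.69 ± 0.12). In the other samples Lrrc15 was also called lower (-0.95), and Gsn gave -0.43, not called. Meox1, a transcription factor of activated fibroblasts, gave 1.56 ± 0.23.

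The mean of the ANG II samples was higher for all 36 monocyte and recruited macrophage genes tested, against 6352 of all 14026 tested genes. Of the 36, 8 were called and the list median was 1.34, against 21 called and a median of 0.60 in the other samples. Without ANG II sample 9 the count was 31, without ANG II sample 7 or any 1 of the controls it was 0, and in the other samples it was 1 without samples 4 to 6. The groups stood apart with ANG II higher in 24 of the 36, against 10.2% of all tested genes. Trem2, a lipid receptor of macrophages, was 9.85, 13.9 and 2.50 FPKM with ANG II and 0.666, 0.299 and 0.299 FPKM in the controls (2.55 ± 0.47). Ms4a7, a marker of monocyte-derived macrophages, was 7.18, 22.4 and 4.70 FPKM against 0.825, 0.748 and 1.18 FPKM (2.43 ± 0.45). Ctss, a lysosomal protease, was 46.7, 98.0 and 21.8 FPKM against 10.9, 7.96 and 9.24 FPKM (2.21 ± 0.45). ANG II sample 8 was the highest of the 3 in each of these genes and ANG II sample 9 the lowest. Of 26 resident macrophage genes, 18 were higher here, called or not, with a median of 0.20. In the other samples 19 were higher, with a median of 0.27, and 7 were called higher and 3 lower. In samples 7 to 9, 0 were called higher and 2 lower, against 2.05% and 1.77% of all tested genes. These were Retnla, a marker of alternative activation (-1.94 ± 0.18), and Timd4, a receptor for dying cells (-0.87 ± 0.19). Retnla was 2.01, 0.945 and 1.04 FPKM with ANG II against 8.60, 7.72 and 6.98 FPKM in the controls. In the other samples Retnla was also called lower (-1.06), and Timd4 gave -0.32, not called.

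Among the other immune lists, 6 of 40 chemokine genes were called higher and 2 lower in the other 9 and 9 samples. Of 38 complement and coagulation genes, 9 were called higher and 0 lower there. Of the interferon-stimulated, acute-phase and antigen presentation lists, 10, 6 and 2 were called higher and 0 lower there. The median of the interferon-stimulated genes was 0.22 here and 0.36 there. In samples 7 to 9 these lists had few called members. Of 40 chemokine genes, Cxcl10, an attractant of T cells, was higher (1.72 ± 0.35) and Ccl19, of lymphoid stroma, lower (-0.91 ± 0.21). In the other samples Cxcl10 gave 0.78 (adjusted p = 0.013) and Ccl19 gave 1.06 (adjusted p = 0.069). In the complement and coagulation list 3 of 38 were higher, among them the lectin pathway protease Masp1 (1.63 ± 0.31), and 3 were lower, among them Colec11 (-0.81 ± 0.15) and Cfd (-1.01 ± 0.13). The groups of Cfd overlapped before the adjustment, where its difference was -0.247 FPKM, and in the other samples Cfd gave 1.36 (adjusted p = 0.15). In limma no gene was called of 49 interferon-stimulated genes, 28 acute-phase and interleukin-6 family genes or 28 genes of antigen presentation, and 9, 6 and 1 of them had an unadjusted p below 0.05. Without ANG II sample 9 the calls were 8, 9 and 2, all higher. The largest differences in these were 1.44 ± 0.41 for Ifi27l2a, 1.29 ± 0.60 for Saa3 and 0.46 ± 0.27 for H2-DMa. Over all tested genes, limma gave 2961 at an unadjusted p below 0.05 in samples 7 to 9. The 10 neutrophil markers summed to 10.9 to 25.1 FPKM with ANG II and 6.15 to 10.5 FPKM in the controls, and the 12 markers of T and NK cells in the table to 3.84 to 12.7 FPKM and 6.50 to 6.90 FPKM. Their part in the results was not tested.

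ANG II sample 9 was closest to the controls for 158 of the 288 genes called higher (54.9%) and for 129 of the 248 called lower (52.0%). Its median distance from the control mean was 0.81 over the genes called higher, against 1.02 and 1.06 in ANG II samples 7 and 8. This did not hold for mitosis genes. Among the 38 called, the distance of ANG II sample 9 was a median of 1.08 times that of the mean of samples 7 and 8, and it was the lowest of the 3 in 9. Among the 8 called macrophage genes the ratio was 0.45, and sample 9 was the lowest in all 8. Among the 17 called hypertrophy markers it was 0.77, with sample 9 lowest in 11. The red blood cell genes were highest in this sample, and their part in this was not tested.

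**Figure D4:**
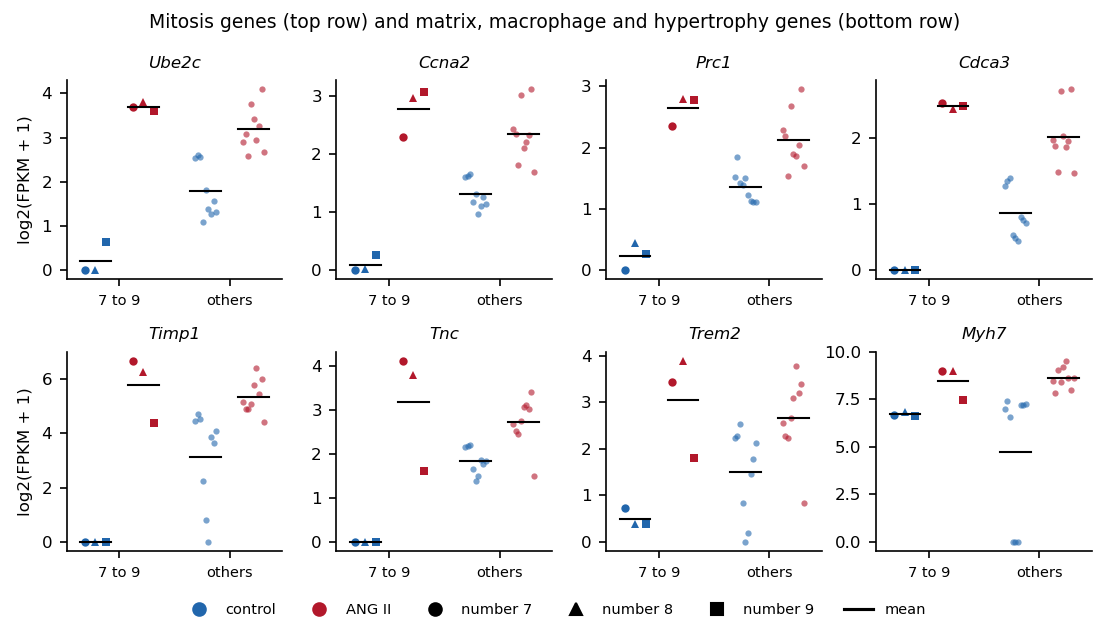
Level of 8 genes in log2(FPKM + 1) in control (blue) and ANG II (red) samples, by sample number for samples 7 to 9 and as small dots for the other samples, with bars for means. ANG II sample 9 (square) lies with the other ANG II samples in the mitosis genes Ube2c, Ccna2, Prc1 and Cdca3 and below them in Timp1, Tnc, Trem2 and Myh7.

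Of 26 corticosteroid response genes, 7 were called higher and 2 lower, against 3 higher and 0 lower in the other samples. The median was 0.32 here and 0.42 there. Called or not, 14 of the 26 were higher here, against 6352 of all 14026 tested genes, and 22 of the 26 were higher there. The metallothioneins Mt2 and Mt1, which bind zinc, were higher: Mt2 was 268, 297 and 165 FPKM with ANG II and 31.8, 27.6 and 42.5 FPKM in the controls (2.78 ± 0.23), and Mt1 gave 1.59 ± 0.16. Without control sample 8, 5 were higher and 0 lower. Across the other 9 and 9 samples, Mt2 gave 0.98 (adjusted p = 0.15). Hmox1, heme oxygenase, which stands in the list of oxidant and antioxidant genes and not in this list, was 88.8, 54.8 and 16.5 FPKM against 4.92, 4.42 and 4.87 FPKM (2.95 ± 0.50). The mineralocorticoid receptor Nr3c2 (-0.67 ± 0.14) and Klf9, a direct target of the glucocorticoid receptor (-0.52 ± 0.10), were lower. Klf9 gave 0.40 in the other samples (adjusted p = 0.093). Of 28 immediate early genes, 3 were called higher, among them Gadd45g (1.60 ± 0.12) and Myc (1.42 ± 0.29), and Nr4a2 was called lower (-0.62 ± 0.14), with groups that overlapped before the adjustment. Hsp90aa1 was the only gene of 36 heat shock and unfolded protein genes called (0.62 ± 0.10).

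Nmrk2, a nicotinamide riboside kinase of the NAD salvage path that is scarce in the healthy heart, was 64.9, 57.0 and 11.3 FPKM with ANG II and listed at 0 in the controls. Its difference before the adjustment was 60.2 FPKM here and -0.0267, 24.6 and 29.0 FPKM in samples 1 to 3, 4 to 6 and 10 to 12. Agt, the precursor of angiotensin itself, was 20.2, 25.3 and 36.7 FPKM with ANG II and 4.22, 3.81 and 4.40 FPKM in the controls (2.43 ± 0.20). Across the other 9 and 9 samples, Agt gave -1.17 (adjusted p = 0.19), and the responses differed by 3.59, which did not pass the cut. Before the adjustment Agt differed by -54.7 FPKM in samples 4 to 6 and was higher with ANG II in the other sets. The remaining 3 called of 31 renin-angiotensin and adrenergic genes belong to the endothelin system: the peptide Edn3 (1.41 ± 0.17) and the receptors Ednra (0.96 ± 0.08) and Ednrb (0.54 ± 0.12).

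Of 24 ubiquitin ligase and muscle atrophy genes tested, 6 were called lower and 1 higher (0, 0 and 3 lower without control samples 7, 8 and 9), with a median of -0.26, against 2 lower and a median of -0.06 in the other samples. Fbxo32, the atrogin-1 ligase of muscle atrophy, was 4.33, 12.3 and 7.51 FPKM with ANG II and 23.9, 27.8 and 26.7 FPKM in the controls (-1.68 ± 0.28). In the other samples it gave 0.25 (adjusted p = 0.50), and the responses differed by -1.93, which did not pass the cut. Klhl38 was 4.54, 6.61 and 2.86 FPKM against 12.9, 17.4 and 16.4 FPKM (-1.59 ± 0.24). Trim63, the MuRF1 ligase, gave -0.52 ± 0.11, and Klhl33, Asb14 and Asb15 were lower as well. The exception was Cish, an inhibitor of cytokine signaling (0.76 ± 0.11), which gave 0.03 in the other samples (adjusted p = 0.89). Ky, a protein of the muscle Z-disc, was lower (-2.02 ± 0.11). It was 1.08, 1.08 and 1.20 FPKM with ANG II against 7.92, 7.28 and 7.60 FPKM in the controls. In the other samples Ky (-0.92) and Klhl38 (-0.57) were called lower as well.

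Of 31 potassium, sodium and pacemaker channel genes, 6 were called lower and 0 higher, against 1.77% and 2.05% of all tested genes. In the other samples 4 were called lower and 3 higher. The list median was -0.19 here and -0.13 there. Without control samples 7, 8 and 9 the count lower here was 0, 1 and 4. Scn4b, a beta subunit of sodium channels, was 2.63, 2.30 and 3.77 FPKM with ANG II and 12.1, 14.7 and 8.34 FPKM in the controls (-1.69 ± 0.22), and it was also lower in the other samples (-0.82, adjusted p = 0.0018). Scn4a gave -0.96 ± 0.17. Kcnd2, which carries transient outward current, gave -0.81 ± 0.15 here and 0.00 in the other samples (adjusted p = 0.98). Kcnj8 and Abcc9, the subunits of the vascular KATP channel, gave -0.82 ± 0.10 and -0.73 ± 0.15, and Kcnj5 gave -0.62 ± 0.12. Kcnj8 and Abcc9 also stand in the list of smooth muscle and pericyte genes. In that list Vtn was lower (-1.16 ± 0.10) and Acta2, smooth muscle actin, higher (0.63 ± 0.12). In the other samples Vtn (-0.62), Kcnj8 (-0.51) and Scn4a (-0.66) were also called lower. Abcc9, Kcnj5 and Acta2 gave -0.31, -0.42 and 0.09 there, not called. Of 26 calcium cycling genes, Cacnb2 was called lower (-0.65 ± 0.10) and Sln, sarcolipin of atrial myocytes, higher (0.70 ± 0.10), although the groups of Sln overlapped before the adjustment. Claudin 5 (Cldn5) was the only gene of 30 endothelial genes called (0.97 ± 0.14), and it gave -0.02 in the other samples (adjusted p = 0.96).

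Of 80 respiratory chain and ATP synthase genes, 75 were lower, called or not, against 7665 of all 14026 tested genes, with a median of -0.28. Only Ndufa9, a subunit of complex I, was called lower (-0.52 ± 0.11), and Atpif1, the inhibitor of ATP synthase, was called higher (0.73 ± 0.12). Among the other mice, 26 of the 80 were called lower, with a median of -0.41, 9 with quantile normalization and 40 with median-ratio scaling. Of 46 fatty acid genes, Hadh, of beta-oxidation, was called lower (-0.95 ± 0.14). It was 213, 172 and 245 FPKM with ANG II and 420.3, 412 and 374 FPKM in the controls. In the other samples Hadh was also called lower (-0.59). Pdk4, the kinase that switches off pyruvate dehydrogenase, was higher, at 396, 529.7 and 614 FPKM against 217, 231 and 185 FPKM (1.26 ± 0.17). So were Ucp2 (0.89 ± 0.19), Fabp4 (0.75 ± 0.15) and Gpihbp1 (0.62 ± 0.11). In the other samples Ucp2 was also called higher (0.61). Pdk4 gave -0.18 there (limma adjusted p = 0.76), Fabp4 0.14 and Gpihbp1 0.08, none of them called. Before the adjustment Pdk4 differed by -482 FPKM in samples 4 to 6 and was higher with ANG II in the other sets. Fabp4 is also an adipocyte marker, and of the 9 adipocyte markers measured, 4 were higher and 4 lower, Adipoq and Cidec among the lower, with Ucp1 at 0 in all 6 samples. Without Fabp4 they summed to 54.8, 53.2 and 46.1 FPKM in ANG II samples 7, 8 and 9 and to 45.9, 52.6 and 45.1 FPKM in the controls. In the citrate cycle and branched-chain amino acid list 28 of 29 were lower and Bckdha was called (-0.77 ± 0.15). Bckdha was also called lower in the other samples (-0.76). Of 33 glycolysis genes, Pgam1 (0.96 ± 0.10) and Pfkp (0.76 ± 0.17) were higher and Pdp1 lower (-0.59 ± 0.13). Glutathione transferase Gstm1 was lower (-0.53 ± 0.12). Of 76 ribosomal protein genes, 71 were higher, against 6352 of all 14026 tested genes. Their median was 0.25 against 0.01 in the other samples, but Rpl3 was the only gene of them called (0.93 ± 0.15).

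As a description only, the difference between the response in samples 7 to 9 and in the other samples passed the limma cut for 8 of 14026 genes (0.057%), 5 with a higher (0.0356%) and 3 with a lower response here (0.0214%). Beside Dbp, Prc1, Cep55 and Depdc1a these were Rab4a, Dynlt1c, Gpr22 and Cep112. Rab4a, a GTPase of endosome recycling, was 8.54, 9.14 and 9.98 FPKM with ANG II and 2.08, 2.51 and 3.25 FPKM in the controls, while in the other samples both groups had close medians, 5.87 and 5.65 FPKM. The responses differed by 1.54, and the difference before the adjustment was 9.04 FPKM here and -1.42, 1.05 and -0.307 FPKM in the other sets. Gpr22, a receptor of the heart and brain, was 3.63, 6.09 and 3.55 FPKM with ANG II and 10.3, 8.68 and 9.11 FPKM in the controls. Its response differed by -0.97. Cep112, a centrosome protein, was 1.12, 1.06 and 0.923 FPKM against 2.82, 2.41 and 2.36 FPKM (a difference in response of -0.72). Dynlt1c, a dynein light chain, gave 1.17, but it has near-identical copies in the genome and is uncertain, as is Plac9b, lower by the main rule (-1.81 ± 0.13). The count of 8 was 2 without control sample 7, 8 or 9, 3 without ANG II sample 8, 16 without ANG II sample 7 and 36 without ANG II sample 9.

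**Figure D5:**
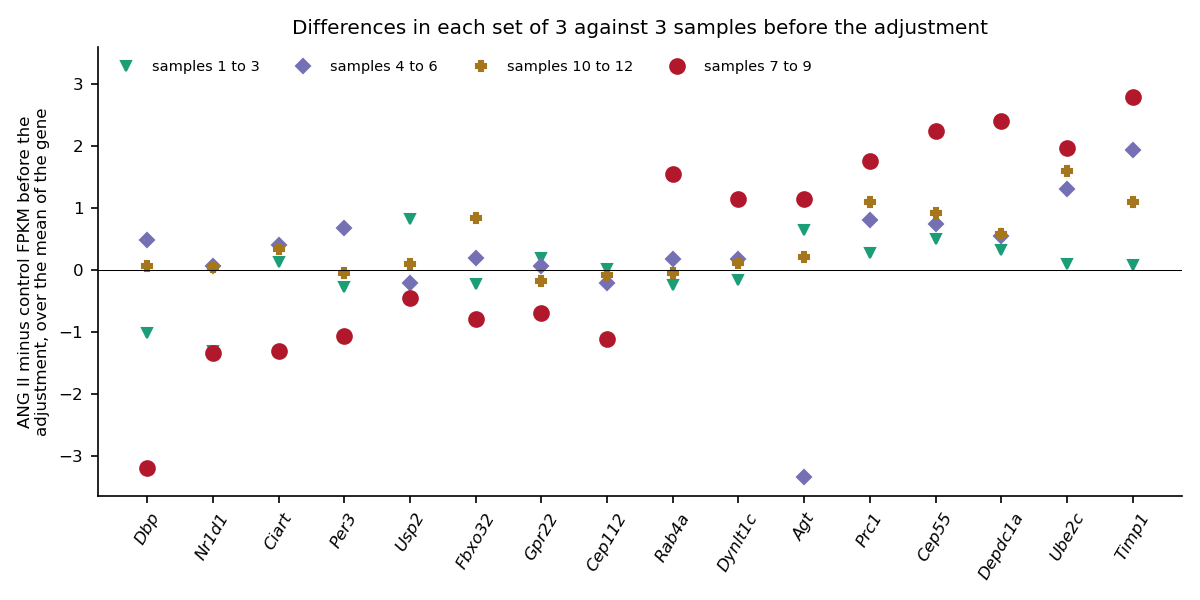
ANG II minus control difference of 16 genes before the adjustment in each of the 4 sets, in FPKM divided by the mean FPKM of the gene over the 24 samples; red circles are samples 7 to 9. Prc1, Cep55, Depdc1a, Ube2c and Timp1 lie above 0 in all 4 sets, Nr1d1 lies below 0 in samples 1 to 3 as well as in samples 7 to 9, and Rab4a, Gpr22 and Cep112 stand apart in samples 7 to 9.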

How the data were processed

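Left ventricular mRNA of 12 ANG II and 12 control mice was measured by sequencing. The authors deposited 1 table of FPKM per gene and sample, adjusted between sets of samples, and the labels name Bowtie2, HISAT and RSEM without versions. The genome build is not given in the sources used here. Read depth is not given, and whole reads could not be recovered from the adjusted values. Negative values were set to 0, and the 14026 genes whose average over the 24 samples reached 0.1 FPKM were tested in limma (version 3.58.1) after log2(FPKM + 1), letting the variance follow intensity, and p-values were adjusted by Benjamini-Hochberg. Genes were called at an adjusted p below 0.05 and an absolute log2 fold change over 0.5. The same fit was made in the other 9 and 9 samples, and an interaction term compared the responses. As the labels do not say that samples came from separate handling, p-values measure the spread between these samples. An exact permutation test of 3 against 3 samples cannot go below p = 0.1. Values before the adjustment were solved from the spacing of values, which were multiples of 0.01 before it, and solutions far from those of the other genes were set aside.

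The 6 samples, the gene lists and the tests were chosen with earlier results of these data known. Genes were named by a rule: the 10 largest increases and decreases among called genes, the hub genes, the 2 largest called increases and decreases of each list (or its largest change) and the genes of the interaction. Any further gene was picked once its values had been seen. The scripts were tested on simulated data. Alternatives covered the pseudocount, filters, scaling, the replicate block, samples left out and the values before the adjustment, and a fit relative to the mean of each gene was added after seeing the data. Python 3.11.15, pandas 2.3.3 and R 4.3.3 were used.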

Additional observations from a re-analysis of the deposited data

Results flagged for a closer look

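For 8 genes the difference between the ANG II response in samples 7 to 9 and in the other samples passed the limma interaction cut, but the samples were selected on these values, so this is no evidence that the responses differ. On the log2(FPKM + 1) scale the difference was -5.53 for Dbp, 1.54 for Rab4a, 1.64 for Prc1, 1.17 for Dynlt1c, 1.02 for Cep55, 0.62 for Depdc1a, -0.97 for Gpr22 and -0.72 for Cep112.

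In the other 9 samples of a group, 1 sample lay far from the rest for 6 of the 66 groups looked at, and chance flags about 1 in 20. Tnc was lowest in ANG II sample 12, at 1.82 FPKM, and Mt2 was highest in the same sample, at 1681 FPKM. Retnla was listed at 0 in ANG II sample 5. Fcgr3 was highest in ANG II sample 6, at 50.5 FPKM. Hist1h2ap was listed at 0 in control sample 6. Dynlt1c was highest in control sample 3, at 42.1 FPKM.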

How the results depend on the processing

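The count of 536 genes called in samples 7 to 9 ranged from 87 to 1463 when 1 sample was left out, and was 1390 before the adjustment, where the fit was relative to the mean of each gene and had no fold limit. The same fit on the deposited values gave 209 higher and 257 lower. In the other samples 792 genes were called, 1318 with a pseudocount of 0.1, 3797 without a fold limit, 1269 without samples 1 to 3, 291 without samples 4 to 6 and 465 with the replicate number as a block. The 8 genes of the interaction became 38 with a pseudocount of 0.1, 22 with median-ratio scaling, 30 with quantile normalization, 17, 4 and 19 without samples 1 to 3, 4 to 6 and 10 to 12, 44 with 1 mean per group and set, 2 to 36 with 1 sample left out and 2 with the replicate block. The cause of these changes was not tested. The block gave 403 genes in samples 7 to 9, 247 higher and 156 lower. Deviations of same-numbered samples 7, 8 and 9 correlated at -0.0476, -0.0403 and -0.0232. As deviations from group means of 3 adjusted values, these cannot tell whether samples with the same number were handled together. In the other samples median-ratio scaling gave 436 higher and 325 lower. The median of 26 of 34 lists lay above that of all genes, and 24 to 26 did under the alternatives. The balance of higher and lower calls turned around, to 113 and 178 in the other samples without samples 4 to 6, and to 626 and 764 in samples 7 to 9 before the adjustment. Of the genes named by rule, none that was called in its comparison changed sign under the alternatives run; Angptl7, named after its values were seen, did so before the adjustment. Read depth is unknown, so no limit from depth can be given.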
